A study of Mus musculus with 15 samples.

Results

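One day after a single dose of the TREM2 antibody ATV:4D9, most microglia of the treated mice lay in 1 of 3 deposited expression clusters, cluster 2, and a minority stayed in clusters 0 and 1. These remaining cells are described here. They were chosen by cluster number and mouse alone and numbered 2043 of the 20459 cells of the 3 treated day 1 mice and of 102043 cells in the series. Cluster 0 held 945 of them (351, 383 and 211 in replicates 1 to 3) and cluster 1 held 1098 (555, 363 and 180). They made up 12.7%, 10.2% and 6.52% of the cells of the 3 mice. The question was whether these cells had responded to the antibody at all, and each cluster was compared with the same cluster of control mice given ATV:RSV and sampled at day 1, in which cluster 0 held 11364 cells and cluster 1 held 8598.

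All mice were male C57BL/6J mice of 3.5 months with the hTfR KI genotype, a knock-in of human transferrin receptor sequence, and all received 1 dose of 10 mg/kg. ATV:4D9 binds TREM2 and carries an Fc domain engineered to bind the transferrin receptor (the antibody transport vehicle, ATV), and the control antibody, ATV:RSV, shares the vehicle but lacks the TREM2 arms. Cells came from cortex and hippocampus, were enriched with CD45 beads after dissociation and were sequenced by a droplet method that reads the 3′ end of each transcript and marks molecules by unique molecular identifiers (UMIs). Of 15 mice in 5 groups of 3, the 6 day 1 mice (3 treated, 3 control) carry the comparisons, and every one of the 3 batches held a mouse from each group. A further control animal that the labels mention was not analysed here. The comparison has no untreated mice, and "treated" and "control" below mean ATV:4D9 and ATV:RSV at day 1.

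Microglia are the resident macrophages of the brain. In their resting, or homeostatic, state they express receptors such as P2ry12, which senses extracellular nucleotides, and they depend on Csf1r, the receptor for colony-stimulating factor 1. TREM2 is a lipid-sensing receptor of microglia that signals through the adaptor Tyrobp and the kinase Syk. Type I interferons act on a shared set of antiviral genes, and immediate early genes such as Fos and Egr1 are induced within minutes by many stimuli, including the dissociation of tissue.

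The cells met the microglia label. Of the 945 treated cells of cluster 0, 933 had a UMI of at least 3 of 6 microglia markers (P2ry12, Tmem119, Sall1, Siglech and Fcrls among them), and of the 1098 of cluster 1, 1088 did. P2ry12 (chromosome 3, 59216272 to 59262871) measured 1735, 1541 and 1610 CPM in the treated mice and 2049, 2038 and 1984 CPM in the controls in cluster 0, and 2005, 1740 and 1902 CPM in the treated mice and 2473, 2413 and 2414 CPM in the controls in cluster 1. CPM, a gene's share of all UMIs scaled to a common total, were computed from UMIs summed over the cells of a cluster in 1 mouse, after scaling by the trimmed mean of M values (TMM). Fos and Egr1 marked cluster 0 much more than cluster 1: Fos measured 5223, 4627 and 4962 CPM in the controls of cluster 0 and 764, 964 and 546 CPM in those of cluster 1, and Egr1 2842, 3002 and 2766 and 356, 498 and 251 CPM. The difference between the clusters in these genes is what the clustering used and is not a finding.

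The clusters were drawn by the authors on the expression of these same cells. Treated cells that had changed more may have been placed in cluster 2, so the sizes of changes below are those of the cells that stayed, and the numbers of cells per cluster were not compared between groups. The 2 clusters of 1 mouse are separate cells from the same animal. Each library holds the cells of 1 cluster in 1 mouse. In the gene tests within a cluster, p-values rest on the spread between mice of a group, taken over all 15 mice. In the test of the difference they rest on the spread between the 6 day 1 mice in the contrast of their 2 clusters.

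The treated cells held fewer UMIs than the control cells of the same batch in all 3 batches and in both clusters. The median per cell of cluster 0 was 6139, 5220 and 4677 UMIs in the treated mice and 6922, 5852 and 6265 in the controls (difference -1001, two-sided exact permutation test p = 0.2, where 0.1 is the smallest p of 3 against 3). In cluster 1 it was 4344, 3496 and 3288 against 4388, 3677 and 4137.5 (difference -358, exact permutation p = 0.4). With mice paired by batch, the exact permutation p was 0.25 in both clusters, the smallest that 3 pairs allow. Both lay well below the treated cells of cluster 2, with medians of 9726.5, 8907 and 8557 UMIs. Cells were also reduced at random to 3094 UMIs, with shallower cells left out. In cluster 0 these were 29 to 33 of the 211 to 383 treated cells a mouse and 27 to 70 of the 3477 to 4025 control cells. In cluster 1 they were 77 to 134 of 180 to 555 and 376 to 832 of 2693 to 2993. The share left out was larger in the treated mouse of all 3 batches and in both clusters, so all values on thinned cells lack more of the shallow treated cells. In the cells kept, cluster 0 showed 1396.5, 1411 and 1398 genes per cell in the treated mice and 1415, 1428 and 1412.5 in the controls, without overlap (exact permutation p = 0.1), and cluster 1 showed 1494, 1492 and 1458 against 1500, 1472 and 1481 (exact permutation p = 0.8). The mitochondrial share of UMIs was 4.37%, 3.53% and 4.26% in the treated cells of cluster 1 and 3.13%, 3.13% and 3.37% in its controls, without overlap, and 4.09%, 3.35% and 3.48% against 3.35%, 3.09% and 3.39% in cluster 0, where the groups overlapped but the treated value was higher in all 3 batches, as in cluster 1. The part of this shift in the results below was not tested.

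Markers of other cell types were found in every library. The erythrocyte markers stood apart in 1 library, control replicate 1 of cluster 1, with 878 CPM (4 cells with 3 or more of the 5 markers) against 9.51 and 1.30 CPM in the other controls of that cluster and 0 to 5.99 CPM in the treated mice of both clusters. Cells with a UMI of 2 or more markers of 1 other type made up 19.1% to 29.1% of the treated cells of cluster 0 and 26.1% to 30.7% of its controls, and 12.2% to 21.6% against 15.3% to 22.4% in cluster 1. Of 8 border-associated macrophage markers, summed levels in cluster 0 were 146 to 168 CPM (not scaled by TMM for these lists) in the treated mice and 176 to 195 in the controls, with Lyve1 at 0 in the treated cells, and 5 of 945 treated cells had 3 or more of them. The summed levels in cluster 1 were 195 to 225 and 223 to 238. A list of 6 B cell markers gave 308 to 353 CPM in the treated cells of cluster 1 and 244 to 306 in the controls, with Cd79a and Ms4a1 among those at 0 in the treated cells. Neutrophil and monocyte lists stayed at or under 18.8 CPM in every group of both clusters. T or NK cell markers were lower in the treated mice of cluster 1, at 20.5 to 41.2 CPM against 46.2 to 61.5 CPM. Astrocyte markers were lower in the treated mice of both clusters, at 177 to 195 against 218 to 282 in cluster 0 and 153 to 164 against 236 to 258 in cluster 1. Neuron markers stood at 4.88 to 15.8 against 15.1 to 21.2 in cluster 0 and 6.83 to 13.2 against 18.8 to 26.7 in cluster 1, and oligodendrocyte markers at 39.5 to 160 against 47.2 to 65.2 in cluster 0. Without the cells that held 2 or more markers of another type, 366 genes were called higher and 121 lower in cluster 0 and 702 and 309 in cluster 1, fewer than with them (the counts with them follow). A UMI of the mitosis genes Mki67 or Top2a was found in 0.855%, 2.09% and 1.42% of the treated cells of cluster 0 and 1.08%, 1.10% and 0.556% of those of cluster 1, in 0.1% to 0.388% of the control cells of either cluster and in 22.4% to 30.4% of the treated cells of cluster 2. Of the 2043 cells, 45 carried a barcode sequence that occurred in another library, 3 of them that of a treated cluster 2 cell.

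Both clusters differed from their controls in many genes. In cluster 0, 679 of 13329 genes tested (5.09%) differed from the controls at a limma-voom adjusted p under 0.05, 503 of them higher (3.77%) and 176 lower (1.32%). In cluster 1, 1101 of 11989 genes (9.18%) differed, 762 higher (6.36%) and 339 lower (2.83%). The changes were mostly of moderate size: 212 higher and 28 lower genes of cluster 0 reached 2-fold, and 238 and 36 of cluster 1. The median log2 fold change over all genes tested was 0 in both. Groups that did not overlap were common. In cluster 0, 11.4% of all genes tested were higher and 16.3% lower without overlap, and in cluster 1 13.1% and 15.1%.

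Depth limits these counts. The treated libraries held 994851 to 2219659 UMIs in cluster 0 and 586005 to 2502638 in cluster 1, against 25630625 to 30634343 and 10413893 to 14253172 in the controls. The pseudocount that limma-voom adds weighs more on very low genes in smaller libraries, and its part in the values below was not tested. Fitted without a filter on low counts, the genes had a median log2 fold change of 0.35 in cluster 0 and 0.30 in cluster 1. On simulated counts at these depths the fit made false calls at several times the rate its threshold allows in cluster 0, most of them higher genes, and at a smaller excess in cluster 1, and the excess in cluster 0 was reduced but not removed on genes with at least 10 UMIs in each library. The counts of calls may therefore be too high in both clusters, and more so in cluster 0. Of the higher calls, 101 in cluster 0 and 27 in cluster 1 had a mean under 1 CPM, and of the lower calls 2 and 0. A filter of at least 10 UMIs in each of the 6 libraries is hardest to meet in the smaller treated ones. Genes low in the controls therefore pass it only where they are high in the treated mice. Of genes with at least 10 UMIs in each of the 6 libraries, 6.39% of 7605 were called in cluster 0 and 13.1% of 6475 in cluster 1. Run on these genes alone, a choice made after seeing the data, the test called 492 genes higher and 229 lower in cluster 0, and 625 higher and 376 lower in cluster 1. With the batch as a block, which pairs the mice, the counts were 811 and 378 in cluster 0 and 1127 and 677 in cluster 1. Without treated replicate 1 they fell to 307 and 77 in cluster 0 and 419 and 153 in cluster 1, and without treated replicate 2 to 358 and 73 and to 517 and 156. Thinning every cell to 3094 UMIs left 320 and 92 calls in cluster 0 and 477 and 208 in cluster 1.

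**Figure D1:**
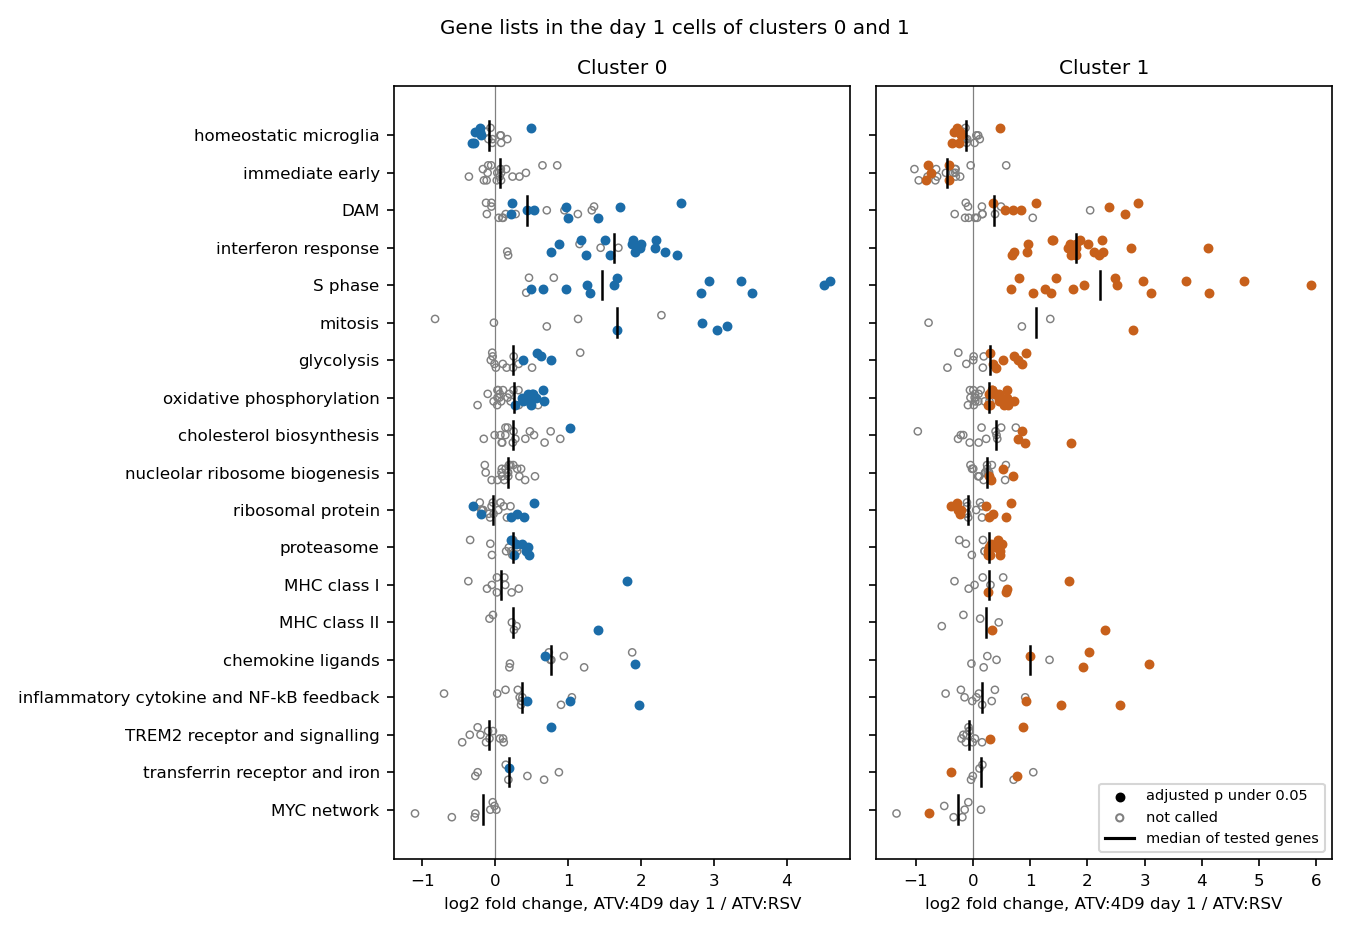
Each point is 1 gene of a list, its log2 fold change (treated day 1 cells over ATV:RSV cells of the same cluster) on the x axis, filled in colour where the limma-voom adjusted p was under 0.05, and the black bar is the median of the list's tested genes. The interferon response and S phase lists lie well to the right, with medians of 1.63 and 1.47 in cluster 0 and 1.80 and 2.21 in cluster 1, and the homeostatic list centres just below 0. Over the genes with at least 10 UMIs in each library, the interferon and S phase medians were 1.51 and 1.26 in cluster 0 and 1.67 and 1.74 in cluster 1. Genes low in the controls pass this filter only where they are high in the treated mice, whose libraries were smaller.

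Genes of the interferon response rose in both clusters. Of 20 genes of the list, all tested, 15 rose and none fell in cluster 0 (12 to 17 rose when 1 mouse was left out), with a median log2 fold change of 1.63, and 20 rose in cluster 1 (13 to 19), with a median of 1.80. In cluster 1, 13 rose without treated replicate 1. Over both clusters this list held the largest number of called genes of the 19 lists, which differ in size. The lists and their members were chosen with earlier results of these data known, so this order and the list counts here and below describe the members and are no separate support. Over all genes tested, 3.77% were called higher in cluster 0 and 6.36% in cluster 1, and 1.32% and 2.83% lower. As a share of genes tested, the S phase list was higher in cluster 0, at 13 of 16 against 15 of 20. In cluster 1 all tested genes of both lists were called. Among the interferon genes with at least 10 UMIs in each library, 11 of 15 and 11 of 11 rose. This filter favours low genes that are high in the treated mice, so these shares are no separate support. The promoters of the 3 list members that ranked highest by p-value over both clusters, among those with a promoter in the RefSeq table, are shown, with matches in capitals to the interferon-stimulated response element, taken here as GAAA, a gap of any 2 bases and GAAA again, on either strand (RefSeq promoters, GRCm38.p6, 250 bases before to 50 after the start, on the gene's strand). Cxcl10 lies on the minus strand at chr5:92348840-92349139, Bst2 on the minus strand at chr8:71537423-71537722 and Ifitm3 on the minus strand at chr7:141010695-141010994.
Cxcl10: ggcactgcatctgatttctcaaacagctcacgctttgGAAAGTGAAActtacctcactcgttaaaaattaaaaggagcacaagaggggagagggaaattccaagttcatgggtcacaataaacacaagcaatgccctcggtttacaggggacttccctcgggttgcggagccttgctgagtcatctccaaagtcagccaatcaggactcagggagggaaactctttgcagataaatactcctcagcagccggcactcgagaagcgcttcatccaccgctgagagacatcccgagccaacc
Bst2: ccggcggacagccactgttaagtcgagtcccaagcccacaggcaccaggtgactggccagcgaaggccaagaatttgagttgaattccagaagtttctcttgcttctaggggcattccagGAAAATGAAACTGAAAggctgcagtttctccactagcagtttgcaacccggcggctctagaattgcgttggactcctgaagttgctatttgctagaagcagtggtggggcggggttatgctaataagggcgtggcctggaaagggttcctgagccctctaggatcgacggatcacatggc
Ifitm3: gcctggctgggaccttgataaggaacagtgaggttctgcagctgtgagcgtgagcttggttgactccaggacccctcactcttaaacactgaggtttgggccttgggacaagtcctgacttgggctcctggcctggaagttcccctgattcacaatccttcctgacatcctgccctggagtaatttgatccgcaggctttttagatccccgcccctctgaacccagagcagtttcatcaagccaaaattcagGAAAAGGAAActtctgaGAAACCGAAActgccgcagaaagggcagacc
Cxcl10 held 1 match, Bst2 held 2 that overlap and Ifitm3 held 2 just after the start. Of the 20 list genes 14 had a promoter in the table and 9 of these held a match, against 3.44% of all 32851 promoters. A match describes the letters of this window only.

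Cxcl10 (chromosome 5, 92346638 to 92348889), a chemokine that attracts T cells, measured 177, 183 and 363 CPM in the treated mice and 49.4, 47.1 and 41.5 CPM in the controls in cluster 0. Treated replicate 3, the mouse with fewest cells left in the cluster, was the highest, and the groups did not overlap (log2 fold change 2.19, SE 0.29, adjusted p = 0.000228). In cluster 1 Cxcl10 measured 108, 163 and 159.6 CPM in the treated mice and 8.44, 7.03 and 7.15 CPM in the controls, a log2 fold change of 4.12, SE 0.25, adjusted p = 7.98e-09. The lower control level of cluster 1 accompanied the larger fold change, and the rise in CPM itself was 195 in cluster 0 and 136 in cluster 1.

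Bst2 (chromosome 8, 71534255 to 71537456), the tetherin that holds virus particles at the cell surface, measured 271, 264 and 219.5 CPM in the treated mice and 158, 142 and 153 CPM in the controls in cluster 0. Its change in cluster 1 was from 162, 161 and 173 to 333, 314 and 294 CPM. The groups did not overlap in either cluster (log2 fold changes 0.77, SE 0.085, adjusted p = 4.16e-05, and 0.95, SE 0.09, adjusted p = 7.24e-07). Ifitm3 (chromosome 7, 141009586 to 141010770), which blocks the entry of viruses, measured 80.6, 58.3 and 69.9 CPM in the treated mice and 28.1, 10.9 and 16.6 CPM in the controls in cluster 0 and 61.7, 92.4 and 46.1 against 20.4, 14.4 and 15.4 CPM in cluster 1, without overlap and with a log2 fold change of 2.00 and 2.00. Usp18, which restrains interferon signalling, changed by 2.21 (0.000744) in cluster 0 and 2.25 (1.69e-06) in cluster 1, with the adjusted p in parentheses here and below, and Isg15, a ubiquitin-like modifier, by 1.25 (0.00294) and 1.72 (4.95e-05). The signal transducer Stat2 was not called in cluster 0, at 0.17 (0.732). In cluster 1 it rose by 0.71 (0.0125), which was lost without treated replicate 1, at 0.70 (0.131).

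Single chemokines and cytokines rose, not the whole lists. Of 10 chemokine ligands, 2 rose in cluster 0 (Ccl12 and Cxcl16) and 4 of 9 tested in cluster 1 (Ccl12, Cxcl16, Ccl2 and Ccl7), and none of the list fell. Ccl24, a chemokine that is not on the list, was called lower in both clusters, a call lost in cluster 0 whichever of the 6 mice was left out and in cluster 1 whichever treated mouse was. Ccl12 (chromosome 11, 82101845 to 82103400), a ligand of the monocyte receptor Ccr2, measured 574, 613 and 1060 CPM in the treated mice and 175, 182 and 193 CPM in the controls in cluster 0, with treated replicate 3 again highest. It measured 677, 699 and 768 CPM in the treated mice and 67, 82.7 and 107 CPM in the controls in cluster 1. The groups did not overlap, and the log2 fold change was 1.91, SE 0.19, adjusted p = 1.02e-05, in cluster 0 and 3.07, SE 0.20, adjusted p = 1.09e-08, in cluster 1. Ccl3 and Ccl4, chemokines that attract monocytes, were not called in either cluster, at 0.20 (0.693) and 0.77 (0.0541) in cluster 0 and -0.028 (0.964) and 0.41 (0.259) in cluster 1. With the batch as a block Ccl4 was called in cluster 0 (0.78, adjusted p = 0.0243). The call of Ccl2 in cluster 1 (1.92, 0.0083) was lost without treated replicate 1 (2.02, 0.0641) or replicate 2 (1.85, 0.0515).

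Of 13 tested inflammatory cytokine and NF-kB feedback genes, 3 rose in each cluster and none fell (Tnf, Il1a and Socs3 in cluster 0, and Tnf, Il1a and Bcl3 in cluster 1). In cluster 1, 1 rose without treated replicate 1. Tnf (chromosome 17, 35199381 to 35202007), tumour necrosis factor, measured 697, 673 and 765 CPM in the treated mice and 176, 221 and 149 CPM in the controls in cluster 0 and 134, 169.6 and 123 CPM in the treated mice and 26.3, 35.4 and 15.9 CPM in the controls in cluster 1. The control levels of the clusters thus differed, and treated and control mice did not overlap in either (log2 fold changes 1.97, SE 0.26, adjusted p = 0.000219, and 2.56, SE 0.31, adjusted p = 1.31e-05). The interleukin Il1a rose by 1.02 (0.00781) and 0.92 (0.00464), the latter lost without treated replicate 1 (0.80, 0.105). Socs3, a feedback inhibitor of cytokine receptors, rose in cluster 0 (0.43, 0.00322) and measured -0.013 (0.972) in cluster 1. Il1b was not called, at 1.05 (0.131) and 0.91 (0.329).

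**Figure D2:**
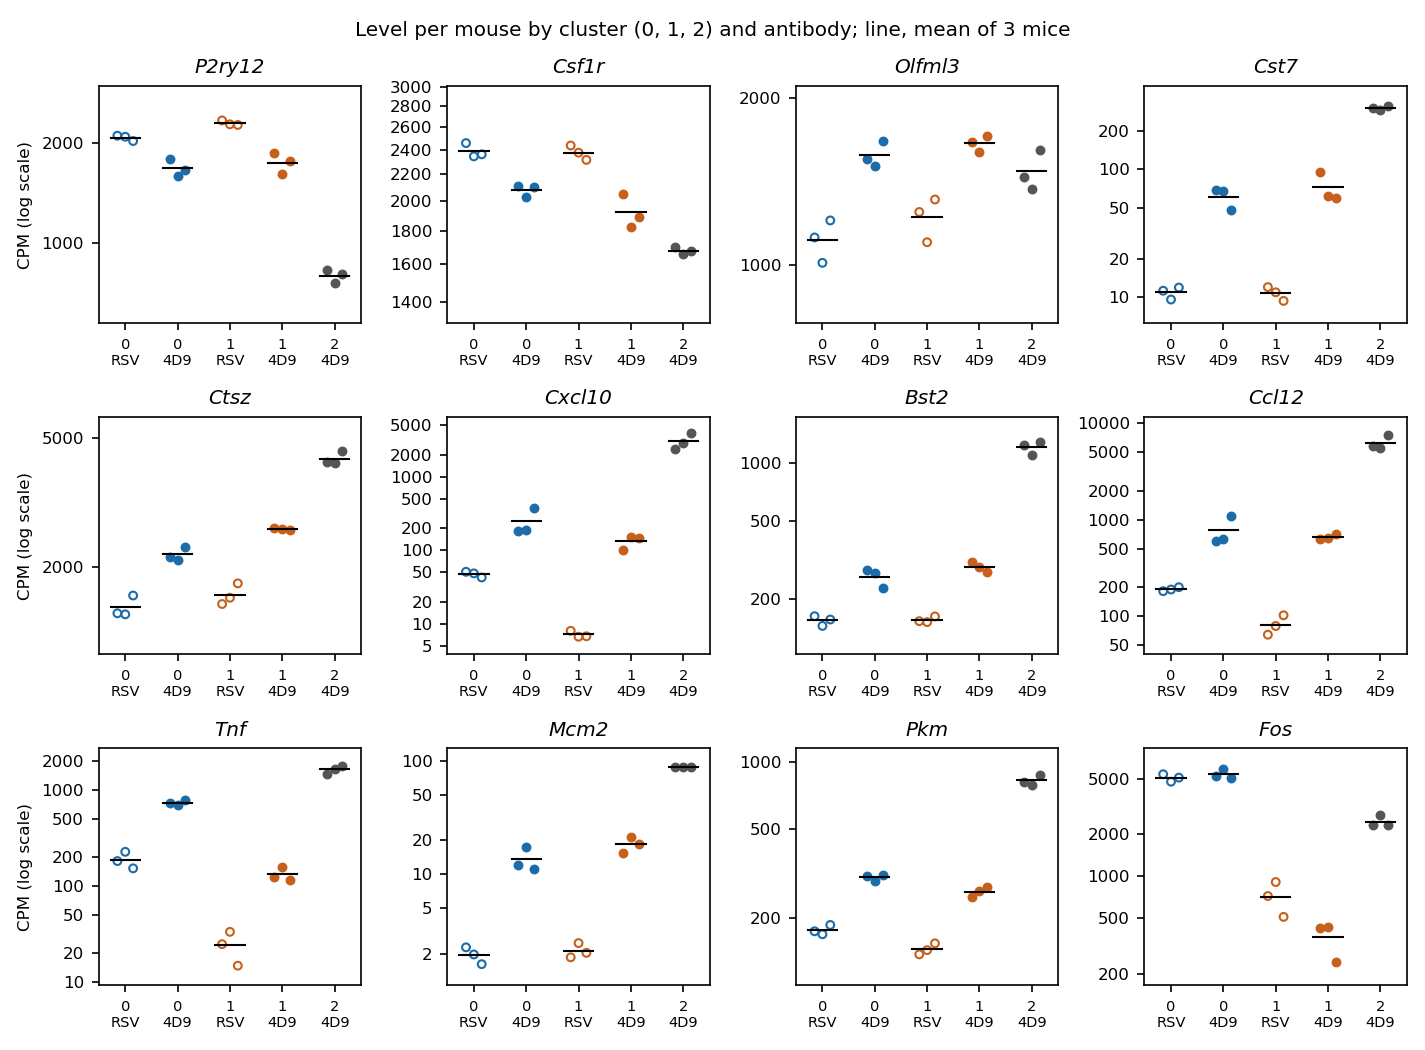
Each point is 1 mouse, on a log axis of CPM that starts above 0, with ATV:RSV cells as open and ATV:4D9 day 1 cells as filled points, for clusters 0 and 1 and, for the treated mice only, cluster 2. The line is the mean of 3 mice, and here all clusters were scaled together, so values differ slightly from those in the text. Cst7, Cxcl10, Ccl12, Mcm2 and Pkm sit between the controls and cluster 2 in both clusters, P2ry12 and Csf1r lie below the controls and above cluster 2, and Fos is lower than the controls in cluster 1.

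Some genes of disease-associated microglia (DAM), a state described in mouse models of neurodegeneration, rose, while Trem2 itself was not called. Of 23 tested genes of the DAM list 9 rose in cluster 0 (5 to 10 when 1 mouse was left out), with a median of 0.44, and 8 of 22 in cluster 1 (7 to 8), with a median of 0.36. No gene of the list fell in either cluster. Among DAM genes with at least 10 UMIs in each library, a filter that favours low genes high in the treated mice, 8 of 17 and 6 of 15 rose. Their medians were 0.225 and 0.164. In cluster 0, 5 rose without treated replicate 1. Cst7 (chromosome 2, 150570415 to 150578944), cystatin F, an inhibitor of cathepsins, measured 66.5, 65.1 and 46.3 CPM in the treated mice and 10.9, 9.29 and 11.6 CPM in the controls in cluster 0. In cluster 1 it measured 102, 67.1 and 64.2 CPM in the treated mice and 12.6, 11.5 and 9.9 CPM in the controls, and every treated mouse lay above every control in both (log2 fold changes 2.54, SE 0.16, adjusted p = 2.50e-07, and 2.88, SE 0.19, adjusted p = 2.36e-08). The protease Ctsz, cathepsin Z, rose by 0.53 (0.000225) and 0.70 (1.68e-06), from 1628, 1706 and 1898 to 2839, 2823 and 2812 CPM in cluster 1. The surface glycoprotein Cd52 rose by 1.00 (0.000157) and 1.11 (1.49e-05), the lipoprotein lipase Lpl by 1.71 (0.00287) and 2.38 (3.21e-05) and the tetraspanin Cd9 by 0.44 (0.00663) and 0.55 (0.000156). Of these only Cd9 in cluster 0 lost its call when a mouse was left out, at 0.32 (0.0688) without treated replicate 1. Axl, a receptor that recognises phosphatidylserine, stayed at a few CPM: 5.46, 5.34 and 2.95 against 3.93, 1.57 and 1.77 CPM in cluster 0, with overlap (1.14, 0.19), and 6.59, 5.05 and 6.58 against 1.35, 1.03 and 0.67 CPM in cluster 1 (2.65, 0.000375). The lipid carrier Apoe was not called, at 0.049 (0.904) and -0.14 (0.787), and its treated values ran from 178 to 601 CPM in cluster 1.

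Of 12 tested genes of TREM2 and its signalling, Lat2, an adaptor of immune receptors, rose in both clusters, at 0.77 (0.00183) and 0.88 (9.42e-05), and Adam17, a sheddase of TREM2, in cluster 1 (0.29, 0.0179), which was lost without treated replicates 1 or 2 or control replicate 3 (0.25 in each, adjusted p 0.216, 0.128 and 0.0528). Trem2 (chromosome 17, 48346401 to 48354147) measured 2534, 2246 and 2280 CPM in the treated mice and 2477, 2491 and 2739 CPM in the controls in cluster 0, with overlap (-0.12, SE 0.052, adjusted p = 0.2). In cluster 1 it measured 3075, 2553 and 2774 CPM in the treated mice and 2939, 3020 and 3241 CPM in the controls, again with overlap (-0.13, SE 0.058, adjusted p = 0.21). Tyrobp was at 0.11 (0.248) and 0.034 (0.764) and Syk at -0.35 (0.276) and -0.17 (0.591). The transferrin receptor gene Tfrc, whose protein the vehicle binds, was not called, at 7.29, 5.34 and 9.84 against 4.81, 4.18 and 4.65 CPM in cluster 0 (0.67, 0.175) and 4.66, 11.6 and 9.87 against 3.91, 4.5 and 5.14 CPM in cluster 1 (0.71, 0.158). The groups of cluster 0 did not overlap, as for the 11.4% of all genes tested that were higher without overlap. With the batch as a block Tfrc was called in cluster 1 (0.79, adjusted p = 0.0489). Whether reads of the knock-in sequence were counted as Tfrc was not tested.

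Some homeostatic genes fell, by small amounts, and most of the list was not called. Of 16 genes, 6 fell and 1 rose in each cluster, and 3 to 5 fell in cluster 0 and 3 to 6 in cluster 1 when 1 mouse was left out. The medians were -0.077 and -0.13. In cluster 0, 3 fell without treated replicate 2 and 3 fell without treated replicate 3. In cluster 1, 3 fell without treated replicate 2 and 3 fell without control replicate 2. P2ry12 fell by 0.31 on the log2 scale in cluster 0 (SE 0.053, adjusted p = 0.00185) and by 0.37 in cluster 1 (SE 0.052, adjusted p = 8.97e-05), from the levels given above, and no treated mouse reached a control. Csf1r measured 2044, 1961 and 2038 CPM in the treated mice and 2388, 2282 and 2305 CPM in the controls in cluster 0 and 2206, 1962 and 2035 against 2571, 2513 and 2461 CPM in cluster 1, without overlap, at -0.21 (0.00491) and -0.28 (0.000597). The chemokine receptor Cx3cr1, the identity factor Sall1, the lectin Siglech and the protease inhibitor Cst3 also fell in both clusters, by 0.19 to 0.34 on the log2 scale. Their calls in cluster 0 did not hold without every mouse: Cx3cr1 was at 0.0949 without treated replicate 3, Sall1 at 0.132 without treated replicate 2, Siglech at 0.0671 without control replicate 2 and Cst3 at 0.124 without treated replicate 2, the highest adjusted p of each over the mice, with log2 fold changes of -0.22, -0.22, -0.17 and -0.18. In cluster 1 the same held for Cx3cr1 (-0.22, 0.0821 without treated replicate 2), Sall1 (-0.26, 0.122 without treated replicate 1) and Siglech (-0.17, 0.164 without treated replicate 2). Olfml3, a secreted protein typical of microglia, rose instead, at 1507, 1456 and 1627 CPM in the treated mice and 1091, 984 and 1175 CPM in the controls in cluster 0 and 1792, 1722 and 1835 against 1317, 1164 and 1396 CPM in cluster 1, at 0.49 (0.00199) and 0.46 (0.00115). Tmem119 was not called, at 0.08 (0.624) and 0.09 (0.498).

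Some immediate early genes were called lower in cluster 1 and none in cluster 0, and the difference itself was tested gene by gene, as given further on. Genes of this list tell the 2 clusters apart, so their levels helped to set which cells lay in which cluster. The p-values of these genes do not allow for that, and the calls describe the cells as sorted. Of 20 genes, 0 were called in cluster 0, and 5 fell in cluster 1 (Fos, Jun, Jund, Ier5 and Rhob, and 2 to 9 when 1 mouse was left out), with medians of 0.068 and -0.45. In cluster 1, 2 fell without treated replicate 1 and 9 fell without control replicate 3. Fos (chromosome 12, 85473890 to 85477273), a subunit of the AP-1 transcription factor, measured 5066, 5689 and 4906 CPM in the treated mice and 5223, 4627 and 4962 CPM in the controls in cluster 0, with overlap. It measured 459, 468 and 263 CPM in the treated mice and 764, 964 and 546 CPM in the controls in cluster 1, without overlap (log2 fold changes 0.082, SE 0.093, adjusted p = 0.695, and -0.83, SE 0.23, adjusted p = 0.024). Its call in cluster 1 was lost without any one of treated replicates 1, 2 and 3 or control replicates 1 and 2 (-0.66 to -0.96, adjusted p 0.0546 to 0.0802). Jund, another AP-1 subunit, fell from 1750, 2017 and 1763 to 1016, 1231 and 931 CPM in cluster 1 and kept its call whichever mouse was left out (-0.79, SE 0.11, adjusted p = 5.37e-05). Jun in cluster 1 (-0.73, 0.00422) was lost without treated replicate 1 (-0.62, 0.0589), as was Ier5 (-0.36, 0.12). Egr1 measured 2334, 2740 and 2704 against 2842, 3002 and 2766 CPM in cluster 0 (-0.15, 0.262) and 227, 242 and 181 against 356, 498 and 251 CPM in cluster 1 (-0.66, 0.158) and was called in neither. No treated mouse reached a control, which also held for 16.3% of all genes tested in cluster 0 and 15.1% in cluster 1. With the batch as a block 10 of the 20 fell in cluster 1. In cluster 0, 5 of the 20 had an unadjusted limma-voom p under 0.05, the edgeR quasi-likelihood test called 2 and DESeq2 3, all of them higher, and the block called 1, Klf2 (0.82, adjusted p = 0.0283). Over all 13329 genes tested in cluster 0, edgeR called 662 higher, DESeq2 858 and the block 811. The share of all genes with an unadjusted p under 0.05 is not given here, so these counts are not read as a rise of the list.

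Genes of DNA replication rose, at low levels. Of 16 tested S phase genes, 13 rose in cluster 0 (11 to 15 when 1 mouse was left out) and 16 in cluster 1 (14 to 16), and none fell. The medians were 1.47 and 2.21. Some of these genes had few UMIs. Among those with at least 10 UMIs in each library, 9 of 11 and 9 of 9 rose, with medians of 1.26 and 1.74. The treated libraries were the smaller ones, so genes low in the controls met this filter only where they were high in the treated mice. These shares are therefore partly set by the filter and are no separate support. Mcm5 (chromosome 8, 75109569 to 75128439), a subunit of the replicative helicase, measured 13.2, 19.9 and 13.8 CPM in the treated mice and 2.53, 2.09 and 1.58 CPM in the controls in cluster 0. Cluster 1 gave 19.8, 26 and 11.5 CPM in the treated mice and 2.63, 2.25 and 2.68 CPM in the controls, and the groups did not overlap in either (log2 fold changes 2.94, SE 0.22, adjusted p = 8.77e-07, and 2.97, SE 0.24, adjusted p = 9.57e-08). Its partner Mcm2 (chromosome 6, 88883474 to 88898780) measured 11.8, 17 and 10.8 CPM in the treated mice and 2.21, 1.92 and 1.58 CPM in the controls in cluster 0 and 16.7, 23.1 and 19.7 CPM in the treated mice and 1.96, 2.62 and 2.16 CPM in the controls in cluster 1. It was higher in every treated mouse than in any control, at 2.83 (5.26e-07) and 3.11 (7.81e-08). Mcm6, of the same helicase, rose by 1.67 (9.42e-05) and 2.49 (1.49e-07), Gins2, which activates it, by 1.63 (0.000958) and 2.51 (1.03e-06), and the sliding clamp Pcna by 0.50 (0.00833) and 0.66 (0.000658). Pcna in cluster 0 lost its call without treated replicate 1 (0.46, 0.0845) or 2 (0.47, 0.0744). Of 9 tested mitosis genes 4 rose in cluster 0, and of 4 tested in cluster 1 Top2a, a topoisomerase, rose (2.79, 0.00119), but no mitosis gene had 10 UMIs in every library. Genes so low in the controls may have been tested only because the treated mice held more, so these counts are not read as a rise of the list. The counts of all called genes without the cells that held a Mki67 or Top2a UMI were 638 in cluster 0 and 1106 in cluster 1.

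Energy metabolism, protein turnover and antigen presentation moved in part. For the counts here and in the next paragraph, 3.77% of all genes tested were called higher in cluster 0 and 6.36% in cluster 1. Among genes with at least 10 UMIs in each library, which all oxidative phosphorylation and proteasome genes were, 6.39% and 13.1% were called in either direction. A list with 1 call is not read as a rise. Of 30 genes of oxidative phosphorylation 11 rose in cluster 0 (8 to 12 when 1 mouse was left out) and 16 in cluster 1 (7 to 16), and none of the list fell. Cox7a2l, a factor of the respiratory chain that is not on the list, fell by 0.60 (adjusted p = 7.54e-06) and 0.81 (adjusted p = 4.04e-07) on the log2 scale. Atp5g1, of the ATP synthase, measured 207, 204 and 282 CPM in the treated mice and 128, 136 and 155 CPM in the controls in cluster 0 (0.67, 0.000744) and rose by 0.71 (1.84e-06) in cluster 1. Cox6c, of cytochrome c oxidase, rose by 0.66 (0.00149) and 0.59 (1.31e-05). In cluster 1, 7 rose without treated replicate 1. Of the glycolysis list 4 of 16 rose in cluster 0 and 8 of 15 in cluster 1, and none fell. In cluster 1, 5 rose without treated replicate 1, 5 rose without treated replicate 2 and 5 rose without control replicate 2. Pkm (chromosome 9, 59656368 to 59679375), pyruvate kinase, measured 299, 284 and 304 CPM in the treated mice and 170.2, 165 and 182 CPM in the controls in cluster 0 and 269, 284 and 296 CPM in the treated mice and 146, 153 and 164 CPM in the controls in cluster 1, without overlap, at 0.77 (1.26e-06) and 0.86 (3.32e-07). Gapdh, an enzyme of the same pathway, rose by 0.63 (1.86e-05) and 0.78 (6.31e-07), and Ldha, lactate dehydrogenase, rose in cluster 1 (0.52, 0.000659). The lactate exporter Slc16a3 rose in cluster 1 (0.93, 8.08e-05) and was not called in cluster 0 as reported, but was in 8 of 20 alternatives, among them the batch as a block (0.52, adjusted p = 0.0198).

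Of 17 proteasome genes 7 rose in cluster 0 (2 to 7 when 1 mouse was left out) and 11 in cluster 1 (6 to 11), among them the core subunit Psma1, at 0.47 (0.00121) and 0.48 (0.000179). In cluster 0, 4 rose without treated replicate 1, 2 rose without treated replicate 2 and 4 rose without treated replicate 3. In cluster 1, 6 rose without treated replicate 1, 7 rose without treated replicate 3, 7 rose without control replicate 1 and 7 rose without control replicate 2. Ribosomal protein genes moved both ways, 4 up and 2 down of 20 in cluster 0 and 5 up and 6 down in cluster 1. Rpsa rose by 0.54 (1.96e-06) and 0.67 (1.68e-06), and Rpl7 was lower, at -0.30 (0.000663) and -0.38 (0.000272). Cd74 (chromosome 18, 60803848 to 60812652), the invariant chain of MHC class II, measured 98.3, 90.3 and 82.7 CPM in the treated mice and 43.1, 26.2 and 36.8 CPM in the controls in cluster 0 and 126, 84.5 and 97.1 CPM in the treated mice and 23.5, 16.5 and 24.9 CPM in the controls in cluster 1. It rose in both without overlap (1.41, SE 0.23, adjusted p = 0.00146, and 2.30, SE 0.17, adjusted p = 4.19e-08), and it was the only called class II gene of 6 in cluster 0 and 1 of 2 in cluster 1. Of 10 MHC class I genes 1 rose in cluster 0 (0 without treated replicate 1 and 3 without control replicate 1) and 4 in cluster 1, of which H2-K1 (0.59, 0.00103) was lost without treated replicate 1 (0.39, 0.0601). Of the cholesterol synthesis genes, 1 of 18 rose in cluster 0 and 4 of 17 in cluster 1, and of 20 nucleolar genes 0 and 4 rose. When 1 mouse was left out, 0 to 4 class I, 1 to 3 cholesterol synthesis and 1 to 4 nucleolar genes rose in cluster 1, with 1 cholesterol synthesis gene without treated replicate 1, 0 class I genes without treated replicate 1 and 1 nucleolar gene without treated replicate 2. Of 8 iron genes Ftl1 was called higher in cluster 0, a call lost whichever mouse was left out, and in cluster 1 Slc11a2 rose and the iron exporter Slc40a1 fell by 0.39 on the log2 scale. The latter was not called when a treated mouse, whichever it was, or control replicate 1 or 2 was left out. Of 8 genes of the MYC network 0 were called in cluster 0, and Mnt, a repressor that competes with MYC for its partner, fell in cluster 1 (-0.77, 0.0325). The list had 0 calls without treated replicate 1 or 2 or control replicate 2 or 3.

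The genes with the largest rises by the naming rule (called, groups apart, at least 10 UMIs in each mouse of the higher group) overlapped in part with the lists. In cluster 0 the first 10 were Mcm5, Mcm2, Cst7, Fxyd5, Usp18, Cxcl10, Ifitm3, Ifit2, Cd72 and Tnf, and in cluster 1 Cxcl10, Fxyd5, Mcm2, Ccl12, Cst7, Tnf, Gins2, Olfm4, Mcm6 and Cd74. Fxyd5 (chromosome 7, 31032722 to 31042481), a modulator of the sodium pump, measured 30.1, 21.9 and 26.6 CPM in the treated mice and 5.23, 4.67 and 6.19 CPM in the controls in cluster 0. Cluster 1 gave 28.7, 36.8 and 41.1 CPM in the treated mice and 2.7, 4.12 and 4.84 CPM in the controls, again far from overlap, at 2.30 (3.15e-06) and 3.14 (4.26e-08). Gpr84, a receptor for medium-chain fatty acids that is induced in activated microglia, measured 586, 703 and 561 against 239.9, 225 and 251 CPM in cluster 0 and 335, 355 and 342 against 87.9, 109 and 121 CPM in cluster 1, at 1.38 (0.00014) and 1.71 (2.84e-07).

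The lowest genes by the same rule, which asks for UMIs in the controls alone, mostly rested on few UMIs in the treated mice. The highest counts were those of Lsp1 and Arhgef18 in cluster 1, with 74 and 30 UMIs over the treated mice. In cluster 0 the first 10 were Adtrp, L3hypdh, Vsnl1, March9, Kcnj9, Six5, Cacnb1, Ccl24, Zfr2 and Bicdl1, with 0 to 12 UMIs over the 3 treated mice. Adtrp lost its call whichever treated mouse was left out. Vsnl1 had 0 UMIs against 103 in the controls, at least 2.15-fold lower against a floor of 3 UMIs over the group, and Six5 0 against 90, at least 1.88-fold lower. L3hypdh had 2 against 183, a ratio per UMI sequenced of 0.175 (95% counting interval 0.021 to 0.64). Among the first 10 in cluster 1 were Frat2, Fbxo32, Msr1, Hist1h2bf, Tcim, Ctnnd2, Ccl24, Lsp1 and Arhgef18. Arhgef18 lost its call without treated replicate 2 or 3 and Lsp1 without treated replicate 1. Msr1, a scavenger receptor, had 1 UMI against 81 (ratio 0.106, 0.00265 to 0.608), and Ccl24, a chemokine for eosinophils, 14 against 381 (ratio 0.316, 0.171 to 0.536). Such intervals cover counting error only. Among genes with at least 10 UMIs in every library, chosen after their values were seen, the falls were about 2-fold or less in cluster 0. Most of the lowest in cluster 1 were also near 2-fold. Tnfsf12 stood at 0.354 and Lsp1 at 0.419 of the control mean there, against 0.498 and 0.475 in cluster 0. Neither was among the genes called in the test of the difference between clusters. Clec4a3, a C-type lectin of myeloid cells, measured 56.5, 41.8 and 57.1 CPM in the treated mice and 103, 105 and 102 CPM in the controls in cluster 0 and 55.9, 65 and 64.2 CPM in the treated mice and 136, 131 and 126 CPM in the controls in cluster 1, at -1.02 (0.000423) and -1.12 (2.33e-06). Selenop (chromosome 15, 3268547 to 3280508), a secreted selenium carrier of resting microglia, measured 772, 708 and 711 CPM in the treated mice and 1325, 1213 and 1291 CPM in the controls in cluster 0. It measured 729, 569.5 and 760.2 CPM in the treated mice and 1396, 1267 and 1389 CPM in the controls in cluster 1, and no treated mouse overlapped a control, at -0.80 (5.26e-07) and -0.999 (7.37e-08).

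Ccl12, Cxcl10 and Cst7 were found in more of the remaining cells than of the control cells. Thinning to 3094 UMIs left out the shallower cells, a larger share of the treated than of the control cells. After it, a UMI of Ccl12 was found in 63.2%, 63.2% and 78.6% of the treated cells of cluster 0 and in 29.3%, 30.5% and 33.1% of the control cells. In cluster 1 the shares were 62.2%, 70.3% and 77.7% against 16.2%, 20.1% and 25.1%. Unthinned, they were 82.3%, 81.5% and 83.9% against 47.2%, 47.6% and 52.7% in cluster 0. The treated cells of cluster 2 reached 89.8%, 90.4% and 94.3%, so Ccl12 was found in fewer of the remaining cells. Cxcl10 was found in 21.4%, 30.3% and 30.8% of the treated cells of cluster 0 against 3.67% to 5.03% of the controls, and in 24%, 26.6% and 18.4% against 0.404% to 0.913% in cluster 1. Cst7 was found in 13.2%, 14.7% and 12.6% against 2.58% to 3.03% in cluster 0. The shares of Bst2 in cluster 0 were close, at 43.7%, 49.3% and 37.4% against 33.8%, 34.8% and 37.0%, and unthinned they overlapped, at 71.2%, 68.4% and 53.1% against 61.7%, 57.3% and 61.5%. Those of Isg15 in cluster 0 were 5.49% to 7.08% against 3.36% to 4.28% and also overlapped unthinned. No cell type that should lack these genes was among the deposited cells, so the share that free RNA from other cells gives was not tested.

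Summed over the interferon list, the median thinned cell held 2 UMIs in every treated mouse of both clusters, 1 in every control and 8, 8 and 10 in cluster 2. Cells with 0 UMIs of the list made up 18.4% to 23.6% of the treated cells of cluster 0 and 42.8% to 45.1% of its controls, and 13.8% to 16.5% against 40.4% to 45.8% in cluster 1. Cells with 10 or more made up 3.68% to 9.34% of the treated cells of cluster 0 against 0.759% to 1.59% of its controls. In cluster 1 they made up 0.971% to 3.49% against 0.484% to 0.879%, and the lowest treated share, of replicate 3 with 103 thinned cells, lay close to the controls. The treated cells of cluster 2 reached 44.3% to 50.6%. The homeostatic list summed to a median of 243.5, 224 and 234 UMIs in the treated cells of cluster 0 and 256, 251 and 265 in the controls, and to 264.5, 235 and 265 against 286, 276 and 300 in cluster 1. The treated cells of cluster 2 held 163, 145 and 150. In clusters 0 and 1 the sum nets opposite moves, since P2ry12, Csf1r, Cx3cr1, Sall1 and Siglech were called lower and Olfml3 higher. The net shift of the sum there was that of 1 gene, Cst3, which took most of the sum. Without it, a choice made after seeing the data, the medians were 88, 80 and 87 UMIs in the treated cells of cluster 0 and 85, 83 and 87 in the controls, and 106, 92 and 103 against 105, 97 and 105 in cluster 1 (differences of 0 and -2, exact permutation p = 1 and 0.7), while cluster 2 held 64, 58 and 60.

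**Figure D3:**
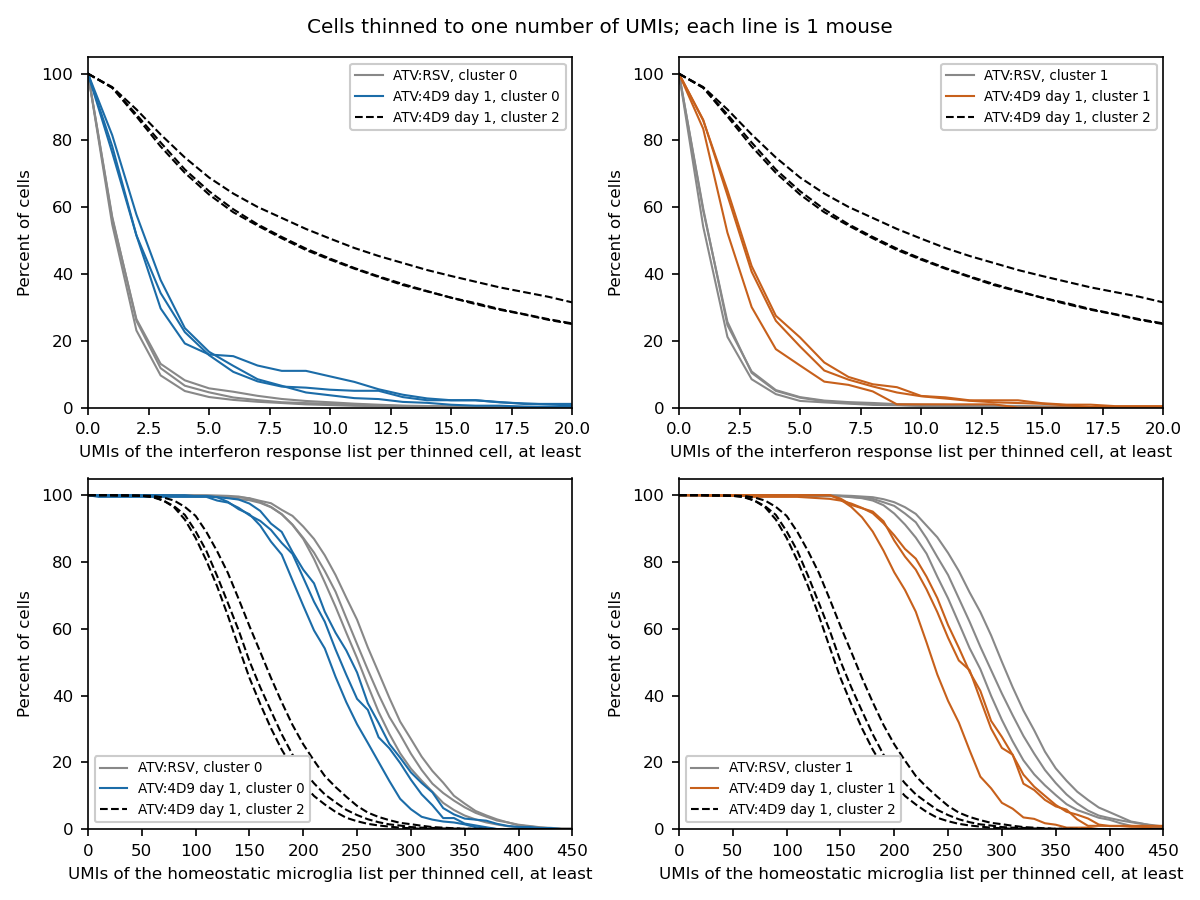
Percent of thinned cells (y axis) with at least the number of UMIs on the x axis, for the interferon list (top) and the homeostatic list (bottom), with 1 line per mouse. The curves of the treated cells of clusters 0 (blue) and 1 (orange) are shifted from the ATV:RSV curves (grey) toward cluster 2 (dashed). For the homeostatic list the net shift of the sum came through Cst3 (differences of 0 and -2 UMIs without it), while other members moved both ways. Cluster 2 stays far off: 44.3% to 50.6% of cluster 2 cells held 10 or more interferon UMIs, against at most 9.34% of the remaining cells.

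The position of each gene between its control level (0) and the level of the treated cells of cluster 2 (100) was computed on CPM. This is a description, since the clusters were cut on these cells. Over the 204 genes at least 3-fold higher and above 50 CPM in cluster 2, the median position was 11.7% in cluster 0 and 13.1% in cluster 1, and the 10th to 90th percentiles ran from 4.70% to 23.2% and from 4.25% to 23.7%. Single genes therefore covered different parts of the way. Cxcl10 stood at 6.71% and 4.15%, Ccl12 at 9.53% and 9.35%, Cst7 at 17.2% and 21.0% and Cd74 at 27.1% and 33.0% in clusters 0 and 1. Tnf stood at 38.1% in cluster 0 and 6.73% in cluster 1, and Cdkn1a, a cell cycle inhibitor, at 58.3% and 11.6%. Over 52 genes at least 2-fold lower in cluster 2 and with at least 100 CPM in the controls of both clusters, the median was 36.9% and 49.3%, with P2ry12 at 31% and 36.6% and Selenop at 59.5% and 70.8%. Scaled by library size alone, the medians were 11.9% and 17.7% over 139 higher genes and 33.2% and 34.5% over 111 lower ones. The higher and lower sets were cut at different folds, and in cluster 0 their order depended on the scale. On log2(CPM + 1), chosen after seeing the data, the medians were 27.1% and 31.7% for the higher genes and 26.9% and 37.8% for the lower ones, with Cst7 at 51.1% and 56.3%, Cxcl10 at 39.6% and 47.3%, Selenop at 44.2% and 56.6% P2ry12 at 22.2% and 25.8%, Tnf at 63.2% and 39.8% and Cdkn1a at 73.1% and 36.4%.

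**Figure D4:**
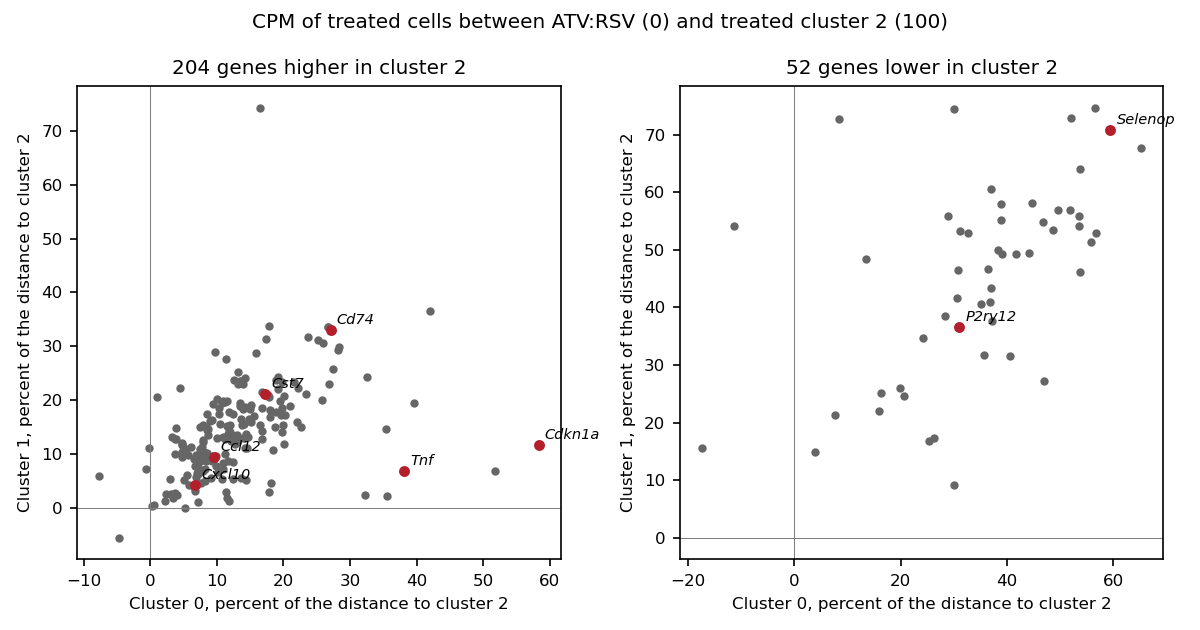
Each point is 1 gene that is higher (left, 204 genes) or lower (right, 52 genes) in treated cluster 2 than in ATV:RSV cells, placed by the percent of that distance covered by the treated cells of cluster 0 (x axis) and cluster 1 (y axis). The higher genes centre at 11.7% and 13.1%, and the lower genes at 36.9% and 49.3% on this linear scale (on a log2 scale 27.1% and 31.7% against 26.9% and 37.8%).

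The clusters differed in their response for few genes. A model with a term for each mouse called 28 of 11364 genes (0.246%), 6 with a larger log2 fold change in cluster 1 (0.0528%) and 22 with a smaller one (0.194%). All 28 were lower in cluster 1 than in cluster 0 of the controls, 12 of them by 2-fold or more, and genes so far apart are among those that tell the clusters apart. The p-values do not allow for clusters cut on the expression of these same cells. Cxcl10 had the largest positive difference, 1.93 (SE 0.17, adjusted p = 4.16e-06), followed by Ccl12 at 1.13 (adjusted p = 0.000107) and Cd74 at 0.88 (adjusted p = 0.00201). The Ccl12 rise itself was 565 CPM in cluster 0 and 629 CPM in cluster 1, and that of Cd74 55.1 and 80.8 CPM, and the control levels of the clusters differed. In the other direction were Rrad, a small GTPase, at -1.10 (adjusted p = 0.00677), the noncoding RNA Neat1 at -1.02 (0.0164), Fos at -0.92 (0.0396), the pseudokinase gene Trib1 at -0.84 (0.0350) and Cd14, a coreceptor for lipopolysaccharide, at -0.72 (0.000678). Fos was 283 CPM higher in the treated mice of cluster 0, not called, and 361 CPM lower in those of cluster 1. Without treated replicate 1, 2 or 3 the model called 7, 8 and 16 genes, and without control replicate 1 or 3 it called 49 and 72. With every cell thinned to 3094 UMIs it called 13 genes, and without cells that held 2 or more markers of another type 17. Fos was lost whichever treated mouse was left out (adjusted p 0.446, 0.364 and 0.102), Trib1 likewise (0.222, 0.404 and 0.1), Rrad without treated replicate 1 or 2 (0.383 and 0.0797), Cd74 and Neat1 without treated replicate 1 (0.446 and 0.660) and Cd14 without treated replicate 2 (0.0668). Cxcl10 and Ccl12 kept their calls whichever of the 6 mice was left out.

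**Figure D5:**
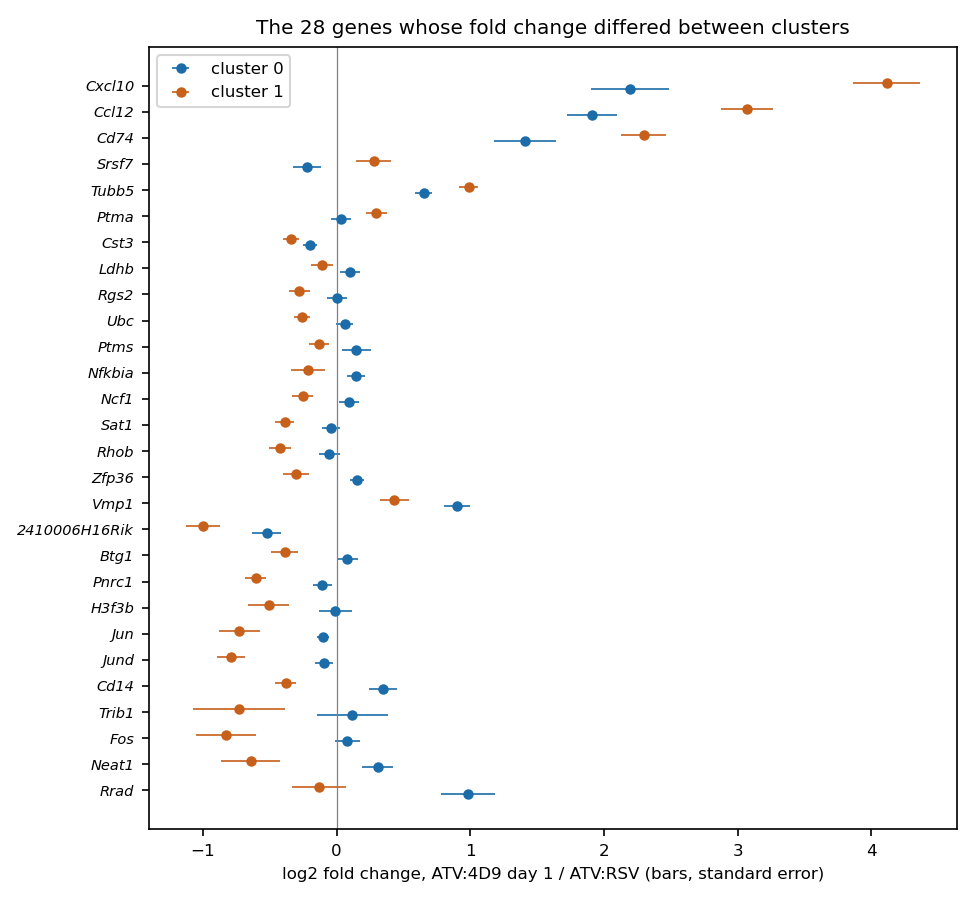
Log2 fold change (x axis, bars are standard errors) of the 28 genes whose response differed, in cluster 0 (blue) and cluster 1 (orange). Cxcl10, Ccl12 and Cd74 rose in both clusters and by more on this scale in cluster 1, while Fos, Jun and Jund lie near 0 in cluster 0 and below it in cluster 1.

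In the mice sampled later after ATV:4D9, Ccl12, Cst7 and Mcm5, chosen among the largest rises of day 1, lay nearer to the controls than at day 1. These are other mice, controls were sampled at day 1 alone, and the values are given without a test, scaled over all clusters. In cluster 0 Ccl12 measured 772.8 ± 277 CPM (SD, n = 3) at day 1, 236 ± 35.4 at day 7, 152 ± 28.7 at day 14 and 146 ± 27.1 at day 28, with 188 ± 8.99 in the controls. In cluster 1 it measured 664 ± 44.7, 98.2 ± 9.63, 66.5 ± 20, 76.4 ± 21.7 and 80.9 ± 18.9 CPM. Cst7 in cluster 0 measured 61.2 ± 11.7, 21.1 ± 2.31, 10.1 ± 0.63, 9.80 ± 1.10 and 10.9 ± 1.19 CPM in the same order. At day 7 all 3 mice thus still lay above all 3 controls for Cst7. Mcm5 in cluster 0 had 16.1 ± 3.86 CPM at day 1 and 2.31 ± 0.43 CPM at day 7, with 2.12 ± 0.50 CPM in the controls.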

How the data were processed

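Microglia of 15 mice (3 in each of 5 groups) were profiled by droplet single-cell RNA sequencing. The labels give alignment to mm10 with Cell Ranger 4.0.0, while the published methods name later versions. The authors deposited UMI counts per gene and cell, with a table of cells that gives the mouse and 1 of 3 clusters, which the authors computed from expression. Reads were not realigned, and the clusters were used as deposited. The mitochondrial share is the deposited percent of UMIs per cell.

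Here the counts were summed per mouse and cluster. Genes passed edgeR's filterByExpr (minimum count 10, total 15), were scaled by TMM and were fitted with limma-voom over the 5 groups of 15 mice, with Benjamini-Hochberg adjustment over all genes tested and a call at 0.05. The difference between clusters was fitted over the 6 day 1 mice with a term for each mouse. The labels state that every batch holds all 5 groups, so the batch pairs mice. Deviations from the group means correlated within batches at 0.0875 to 0.22 in cluster 0 and 0.0272 to 0.0925 in cluster 1, against means of -0.0754 and -0.0345 between batches. The means between batches are fixed by those within, since deviations cancel within a group, and add no separate evidence for the pairing. Alternatives were edgeR quasi-likelihood, DESeq2 1.42.0, other scalings and filters, a batch block, thinning, and leaving out mice or cells. Tested on simulated data, the fit of each cluster gave more false calls than the threshold allows, above all among higher genes of cluster 0. It gave fewer when limited to genes with at least 10 UMIs in each library. The fit of the difference stayed within the threshold, but was simulated only on genes of many UMIs and at a fixed dispersion. That simulation therefore does not cover the genes of few UMIs among those tested. Versions were R 4.3.3, edgeR 4.0.16 and limma 3.58.1.

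Named genes were list members and, per cluster, the 10 highest and 10 lowest called genes with groups apart, at least 10 UMIs in each mouse of the higher group and a symbol that is not that of a predicted gene (5 and 5 for the difference). A few genes were named outside this rule, among them Cox7a2l, Clec4a3 and Selenop. The members and lists were chosen with earlier results of these data known. Gene positions are from GENCODE M21 on GRCm38, 1-based. No doublet caller was used, and whether doublets were removed before deposit is not given in the sources used here. Gene counts of near-identical copies may be shared. A few genes of these lists are not reported here.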

Additional observations from a re-analysis of the deposited data

Results flagged for a closer look

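The response differed between clusters 0 and 1 for 28 genes by the test of the difference itself, whose p-values do not allow for clusters cut on these same cells. On the log2 scale, the response of cluster 1 exceeded that of cluster 0 by 1.93 for Cxcl10, 1.13 for Ccl12, 0.88 for Cd74, 0.48 for Srsf7 and 0.31 for Tubb5. Those of Srsf7 and Tubb5 were lost whichever treated mouse was left out, and Srsf7 was called in neither cluster alone (-0.22, adjusted p = 0.251, and 0.28, adjusted p = 0.237). It was smaller, at -1.10 for Rrad, -1.02 for Neat1, -0.92 for Fos, -0.84 for Trib1 and -0.72 for Cd14. With the batch as a block, Neat1 was called in cluster 0 (0.30, adjusted p = 0.0471) and in cluster 1 (-0.68, adjusted p = 0.0102), and Cd14 in cluster 0 (0.35, adjusted p = 0.0468). Groups of 3 mice were not searched for outlying samples.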

How the results depend on the processing

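The count of called genes in cluster 0 was 679 and became 1171 with edgeR, 1269 with DESeq2, 8717 with no filter on low counts, 1189 with the batch as a replicate block, 412 with cells thinned and 395 with libraries thinned to the smallest. Leaving out 1 mouse gave 384 to 710. In cluster 1 it was 1101 and became 7492 with no filter, 1804 with the block, 685 with cells thinned and 427 with libraries thinned, and leaving out 1 mouse gave 572 to 1032. With no filter, 93.5% and 90.3% of the calls were higher and the median of all genes rose to 0.35 and 0.30, against 0 as reported. The 28 genes of the difference became 18 with library size alone, 1 with no filter, 17 without cells holding 2 or more markers of another type, 13 with cells thinned and 14 with at least 10 UMIs in each library, and leaving out 1 mouse gave 7 to 72. No paired alternative was made for the difference, since its fit already holds a term for each mouse. No called value changed direction. Of the results not called, 14 crossed 0 in at least 1 alternative, among them genes per cell of cluster 1, at -9.33 to 8.67 when 1 mouse was left out. The difference in homeostatic UMIs per cell, -23.5 in cluster 0 and -32.5 in cluster 1, became 0 and -2 without Cst3. On a log2 scale, the median position became 27.1% in cluster 0 and 31.7% in cluster 1 for genes higher in cluster 2, and 26.9% and 37.8% for lower genes. With library size alone it became 17.7% for the higher genes of cluster 1, and 33.2% and 34.5% for the lower genes. Of the named genes that were called, 46 of 67 in cluster 0 and 53 of 82 in cluster 1 kept their call in every alternative, and 0 of 14 for the difference. The split of edgeR calls was 56.5% higher in cluster 0 and 57.1% in cluster 1, against 74.1% and 69.2%. With 586005 UMIs in the smallest treated library, genes of a few CPM rest on few molecules. The cause of these shifts was not tested.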
